A study of Arabidopsis thaliana with 8 samples.

Results

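PRR5 (AT5G24470) is described here from the signals of 1 probe set of 22810 on an Affymetrix ATH1 array. Its identifier, with the name of the array in front, is ATH1.249741_at. The probe set was chosen from its signals on all 8 arrays, so its own levels are given as a description without a test. The annotation table used here does not list it, and its assignment to PRR5 was given with the choice of the probe set. PRR5 encodes a pseudo-response regulator, a repressor of transcription in the plant circadian clock. The genes of this family are expressed one after another from morning to dusk, PRR5 in the afternoon, and their proteins repress the morning genes CCA1 and LHY. The blue-light F-box protein ZTL targets PRR5 for degradation in the dark, and the MYB-like factor RVE8 activates the PRR5 gene. Levels of clock transcripts therefore depend on the hour of harvest as well as on the plant.

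Vegetative shoot apices of Arabidopsis thaliana were sampled at 20 days in short days, with 2 arrays for each of 4 genotypes. These were the accession Col-0 as wild type, ago1-27, se-1, and se-1 carrying p35S::MIR156. The ago1-27 allele weakens ARGONAUTE1, the protein that uses microRNAs to silence their targets, and se-1 weakens SERRATE (SE), a zinc-finger protein needed for microRNA processing. In the transgene the 35S promoter, of viral origin and active in most cell types, drives MIR156. It was present in se-1 only, so no line combined it with a wild-type SE gene. Whether the 2 arrays of a genotype represent different plants is not stated in the labels, so the p-values cover the spread between these arrays, which may be technical. The labels also do not give the time of day of collection, so a difference in level cannot be told apart from a difference in the phase of the daily cycle.

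PRR5 was lowest in Col-0 and highest in se-1. Its signal was 301 and 402 on the Col-0 arrays, 510 and 525 on the ago1-27 arrays, 878 and 1000.4 on the se-1 p35S::MIR156 arrays, and 1247 and 1437 on the se-1 arrays. No array of one genotype overlapped with those of another, and the 4 arrays of the lines with se-1 all lay above the other 4. The mean was 1342 ± 134 for se-1, 939 ± 86.7 for se-1 p35S::MIR156, 517 ± 10.3 for ago1-27 and 351 ± 71.8 for Col-0 (SD, n = 2 for each). Every array was far above background, since the PRR5 signal was between 15.4 and 69.4 times the highest of 27 bacterial control probe sets on the same array. In whole apices, fewer cells of a type and less RNA per cell cannot be told apart.

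**Figure D1:**
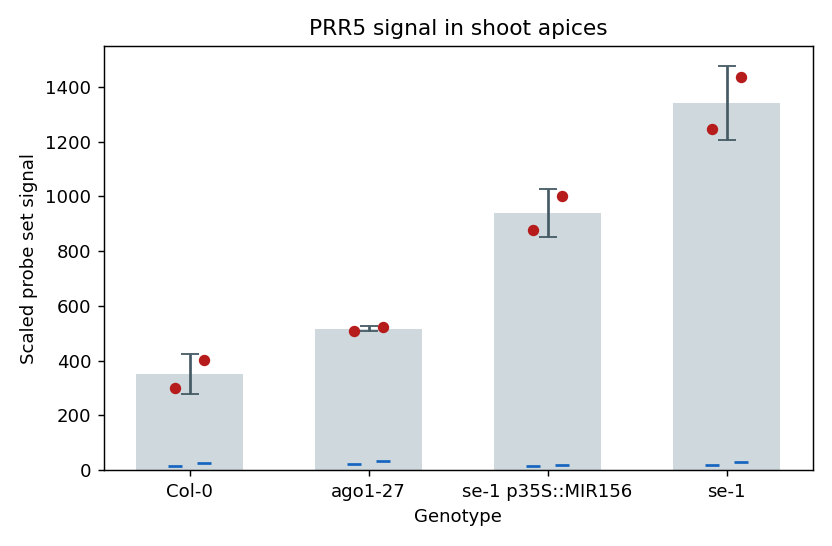
PRR5 signal (linear, scaled by the authors) by genotype. Bars are means and error bars the SD of 2 arrays, red points are single arrays, and blue dashes give the highest bacterial control signal on each array. The 4 arrays with se-1 lie between 878 and 1437, and the other 4 between 301 and 525.

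The distance between se-1 and Col-0 was the largest for PRR5. The se-1 level was 3.85 times the Col-0 level as a ratio of geometric means, a log2 difference of 1.90 (SE of the fit 0.18 here and in the other PRR5 comparisons). Of the 15922 probe sets bright enough to be tested, 2 had a larger positive difference between these genotypes. These were AT5G24240, which was near background in Col-0, and the cytochrome P450 gene CYP71B22. Such ranks depend on the pseudocount of 16 added before taking logs, since 24 probe sets exceeded PRR5 with a pseudocount of 1 and CYP71B22 alone with 64. Against ago1-27, se-1 was 2.59 times higher, a log2 difference of 1.34, and 99 probe sets exceeded it. The lowest se-1 array was 3.10 times the highest Col-0 array and 2.38 times the highest ago1-27 array.

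The line with both se-1 and p35S::MIR156 lay between se-1 and the genotypes with a wild-type SE gene. PRR5 was 2.70 times higher there than in Col-0 (log2 difference 1.39), and 31 probe sets exceeded that difference. It was 1.81 times higher than in ago1-27 (log2 difference 0.84), and se-1 alone was 1.43 times higher than se-1 with the transgene (log2 difference with the transgene -0.51). The se-1 array nearest to the transgenic line was 1.25 times its higher array. The 2 se-1 arrays were themselves 1.15-fold apart and the 2 transgenic arrays 1.14-fold.

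At the low end of the order, PRR5 was 1.49 times higher in ago1-27 than in Col-0, a log2 difference of 0.55, and the nearest arrays of the 2 genotypes, 402 and 510, were 1.27-fold apart. The Col-0 arrays themselves were 1.34-fold apart, less than the ratio between the genotype means and more than the gap between the nearest arrays. Leaving out Col-0 replicate 1 brought the log2 difference to 0.35, and leaving out Col-0 replicate 2 brought it to 0.75. Over all tested probe sets, 814 had a larger positive difference between ago1-27 and Col-0.

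Separation of the arrays was not rare by itself. Between se-1 and Col-0, 23.0% of tested probe sets had both se-1 arrays above both Col-0 arrays. All 4 arrays of the se-1 lines exceeded the other 4 arrays for 720 probe sets, or 4.52%. The full order seen for PRR5, with Col-0 below ago1-27, ago1-27 below the transgenic line and se-1 highest and no overlap at any step, was met by 33, or 0.207%. This order was read from the PRR5 signals themselves, so its share does not measure how unusual PRR5 is. PRR5, one of these 33, had the widest span of them between its lowest and highest genotype means, 1.90 on the log2 scale. Next came AT3G53980, with a span of 1.67, and AT2G43610, with 1.54. Among all tested probe sets, 103 had a wider span than PRR5.

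Few partners of PRR5 in the clock could be examined. The 5 clock lists held 81 genes in all. A probe set naming a single gene was given for 13, and 12 passed the filter on dim signals. The other pseudo-response regulator genes, PRR9, PRR7, PRR3 and TOC1, are not analysed here, nor are CCA1, LHY, RVE8, ZTL and the photoreceptor genes. Of the 12 tested clock genes, 0 were called by limma (Benjamini-Hochberg adjusted p under 0.05) in each of the 6 pairwise comparisons. The shares called over all tested probe sets were 1.09% for se-1 against Col-0, 1.66% for ago1-27 against Col-0 and 0.842% for se-1 p35S::MIR156 against Col-0. They were 0.358% for the transgenic line against se-1, 3.37% for se-1 against ago1-27 and 6.93% for the transgenic line against ago1-27. With shares this low, a count of 0 in 12 is near the background.

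At an unadjusted p under 0.05 the clock genes numbered 2 of 12 in se-1 against Col-0, 4 in ago1-27 against Col-0 and 1 in the transgenic line against Col-0. The shares of all tested probe sets at that p were 11.996%, 13.1% and 9.40% for these 3 comparisons. The clock genes numbered 0 in the transgenic line against se-1, 1 in se-1 against ago1-27 and 0 in the transgenic line against ago1-27, beside shares of 9.04%, 15.8% and 21.4%. Whether the clock genes stood apart from these shares was not tested. The median log2 difference of the 12 between se-1 and Col-0 was 0.03, beside 0.02 over all tested probe sets, and the single values ran from -0.62 to 0.60. PRR5, at 1.90, lay outside that range.

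**Figure D2:**
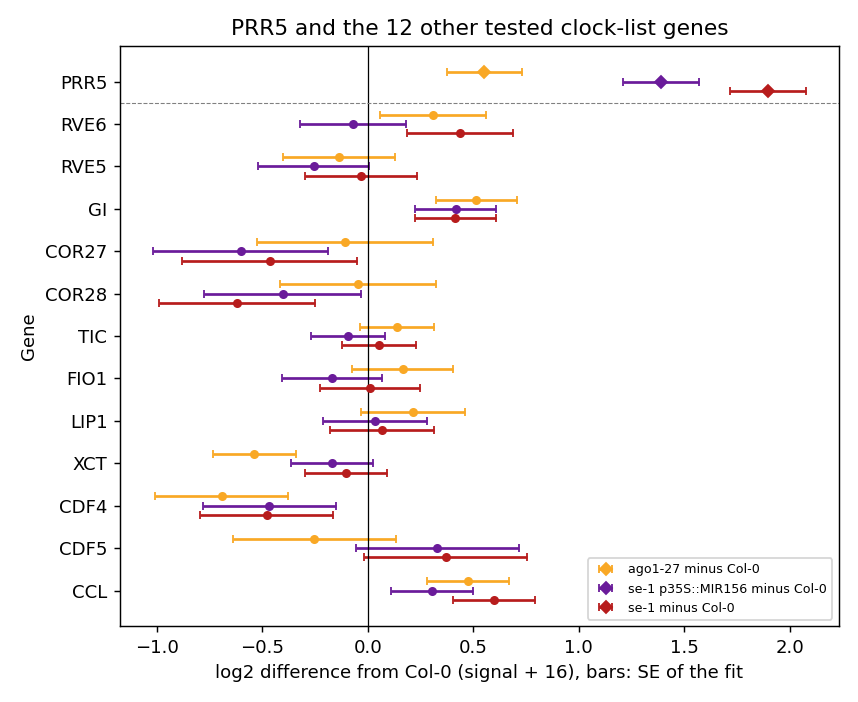
Differences from Col-0 in log2(signal + 16) for PRR5 (diamonds) and the 12 tested genes of the clock lists (circles), with the SE of the fit as bars. PRR5 lies at 0.55, 1.39 and 1.90, and the se-1 values of the other genes lie between -0.62 and 0.60.

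Among the evening genes, GIGANTEA (GI), a large protein of the clock and of day-length sensing, had signals of 388 and 534 on the Col-0 arrays, 580 and 744 with ago1-27, 618 and 608 with se-1 p35S::MIR156, and 573 and 653 with se-1 alone. All 6 arrays of the other genotypes lay above both Col-0 arrays, as they did for 3.88% of tested probe sets. The log2 differences from Col-0 were 0.51 in ago1-27 (limma adjusted p = 0.245), 0.42 in the transgenic line (adjusted p = 0.517) and 0.41 in se-1 (adjusted p = 0.410), each with an SE of 0.19. These values moved with single Col-0 arrays. Without Col-0 replicate 1 they were 0.29, 0.19 and 0.19 in that order, and without Col-0 replicate 2 they were 0.74, 0.64 and 0.64. Unlike PRR5, GI had nearly the same mean in se-1 and in the transgenic line, 613 in both, and its highest mean in ago1-27, 662.

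COR27 and COR28 are cold-induced genes whose proteins repress PRR5 and TOC1. COR27 signals in se-1 were 435 and 1033, beside 1324 and 658 in Col-0, and they were 1381 and 540 in ago1-27 and 745 and 498 in se-1 p35S::MIR156. Its genotypes overlapped, and the log2 difference between se-1 and Col-0 was -0.47 (SE 0.42, limma adjusted p = 0.736). Its sign depended on single arrays, since the difference was 0.03 without Col-0 replicate 1 and 0.14 without se-1 replicate 1, and -1.07 without se-1 replicate 2. COR28 signals were 123 and 114 in se-1, 176 and 110 in the transgenic line, 213 and 169 in Col-0, and 337 and 96.5 in ago1-27. Both se-1 arrays were below both Col-0 arrays, as for 19.9% of tested probe sets, with a log2 difference of -0.62 (SE 0.37, adjusted p = 0.557). Without ago1-27 replicate 2, COR28 was called lower than in ago1-27 both in se-1 (log2 difference -1.40, limma adjusted p = 0.0147) and in the transgenic line (-1.18, adjusted p = 0.0210). Without ago1-27 replicate 1 both differences had the opposite sign, 0.25 and 0.47.

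Of the 14 morning genes, the MYB-like genes RVE6 and RVE5 were tested. RVE6, a relative of the PRR5 activator RVE8, had its lowest mean, 60.8 ± 7.36, in se-1 p35S::MIR156 and its highest, 94.4 ± 26.2, in se-1 (SD, n = 2). The Col-0 mean was 64.8 ± 11.4 and the ago1-27 mean 85.4 ± 26.3. Its log2 difference between se-1 and Col-0 was 0.44 (SE 0.25, limma adjusted p = 0.543), and 0.19 to 0.68 when 1 array of the pair was left out. RVE5 means ran from 72.4 in the transgenic line to 89.96 in Col-0, with a se-1 difference of -0.03 (SE 0.26) that ran from -0.33 to 0.26 when 1 array was left out.

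Among the other clock-affecting genes, log2 differences between se-1 and Col-0 were 0.05 for TIC and 0.07 for the small GTPase gene LIP1, and 0.01 for FIO1. XCT, which affects the period of the clock, had a value of -0.10. In ago1-27 the XCT signal was 83.2 ± 7.27 beside 128 ± 12.02 in Col-0 (SD, n = 2), a log2 difference of -0.54 (SE 0.20, limma adjusted p = 0.232).

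Clock outputs were represented by CCL, CDF4 and CDF5. CCL, a clock-controlled gene with an unstable transcript, had signals of 2818 and 3485 in se-1 and 2498 and 1705 in Col-0. The values were 3208 and 2577 for ago1-27, and 2315 and 2818 for the transgenic line. The se-1 arrays lay above the Col-0 arrays, again a common separation (23.0%), with a log2 difference of 0.60 (SE 0.19, unadjusted p = 0.00766 and adjusted p = 0.197 by limma). This was the highest value of any clock-list gene other than PRR5 in se-1. CDF4 and CDF5 belong to the DOF factors that repress the flowering gene CO and are themselves repressed by PRR proteins. CDF4 had a log2 difference of -0.48 (SE 0.32) in se-1 and CDF5 one of 0.37 (SE 0.39), and CDF4 had 1 array and CDF5 had 2 arrays within the range of the bacterial controls. One more output gene, IAA29, was too dim to be tested.

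PRR5, PRR7 and PRR9 together are known to repress the CBF cold pathway, of whose 11 listed genes 3 were tested. In ago1-27 against Col-0, limma called COR15A and COR15B higher and COR47 lower, and in se-1 against Col-0 it called 1 of the 3, COR15A, beside the 1.66% and 1.09% of all tested probe sets called in these comparisons. The ago1-27 call of COR15A was lost in 4 of 12 alternative settings, among them without Col-0 replicate 1 and without ago1-27 replicate 2, and that of COR47 was lost without either Col-0 array. COR15B kept it in all 12. COR15A signals were 2044 and 1420 in se-1, 662 and 910.3 in Col-0, 531 and 927 in the transgenic line, and 1725 and 2226 in ago1-27. The log2 difference of COR15A between se-1 and Col-0 was 1.12 (limma adjusted p = 0.0429), a call kept in 6 of 12 alternative settings and lost, for instance, without either Col-0 array or without se-1 replicate 1, with adjusted p between 0.0206 and 0.423 over the 12. Between the transgenic line and Col-0 the COR15A arrays overlapped, with a log2 difference of -0.14 (limma adjusted p = 0.938). Whether PRR5 levels bear on the cold genes was not tested.

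COR47 had means of 1326 ± 1.26 in se-1, 1782 ± 187 in the transgenic line, 1038 ± 15.8 in Col-0 and 571 ± 21.3 in ago1-27 (SD, n = 2). It was 1.19 higher in se-1 than in ago1-27 as a log2 difference (limma adjusted p = 0.000418), and this call held in all 12 alternatives. COR15B was called the other way there, at -1.60 (adjusted p = 0.0108), kept in 9 of 12. In the transgenic line against ago1-27, limma called COR47 higher (1.61) and COR15A (-1.46) and COR15B (-2.38) lower. The shares of all tested probe sets called in these comparisons were 3.37% and 6.93%. The COR47 difference of 0.77 between the transgenic line and Col-0 (adjusted p = 0.0287) was called in 6 of 12, and in none of those leaving out an array of either genotype. The COR15B difference between se-1 and Col-0 was 0.61 (SE 0.32, adjusted p = 0.487).

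Type-A response regulators share the receiver fold with PRR5 and belong to the cytokinin pathway. Of 10 listed genes, ARR15 and ARR16 were tested. ARR15 had signals of 211 and 181 in ago1-27, 346 and 460.1 in se-1, 476 and 419 in the transgenic line, and 580 and 509 in Col-0. Its lowest level was thus in ago1-27, against Col-0 for PRR5. It was called lower in ago1-27 than in Col-0 (log2 difference -1.40, limma adjusted p = 0.00105) and higher in the transgenic line than in ago1-27 (1.13, adjusted p = 0.00186). The log2 difference between se-1 and ago1-27 was 0.97 (limma adjusted p = 0.00933), a call lost without ago1-27 replicate 2 or se-1 replicate 2. The shares of all tested probe sets called were 1.66%, 6.93% and 3.37% in that order. The ARR15 difference between se-1 and Col-0 was -0.43 (adjusted p = 0.377). ARR16 was not called in any comparison, and its difference between se-1 and Col-0 was 0.19 (SE 0.23, adjusted p = 0.824).

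Which other genes had a pattern like that of PRR5 was measured by the Pearson correlation of log2(signal + 16) over the 8 arrays. The correlation was taken over 438 tested probe sets with 1 gene and a span of at least 1 on the log2 scale between genotype means. These points share arrays and fall into 4 genotypes, so r is a description. The median r was 0.19, and 22 genes had an r above 0.9. The highest was 0.98 for AT3G53980, a gene of the lipid-transfer protein family, which gave 190 and 203 with Col-0, 254 and 292 with ago1-27, 416 and 506 with the transgenic line, and 728 and 596 with se-1. Like PRR5, AT3G53980 showed no overlap between any genotypes.

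The other 7 of the 8 most similar genes were AT3G26350 and AT3G13340 (r = 0.97 for each), AT4G11860, AT3G17770 and PSF2 (0.96 each), and AT3G48200 and AT2G21430 (0.95 each). PSF2 encodes a subunit of the GINS complex of DNA replication. PSF2 signals were 399 and 334 in se-1, 284 and 247 in the transgenic line, 151 and 194 in ago1-27, and 128 and 141 in Col-0, again with no overlap. For AT3G13340 they were 462 and 671 in se-1, 416 and 400.1 in the transgenic line, 279 and 271 in ago1-27, and 212 and 256 in Col-0. AT3G26350 was dim, with 4 arrays within the range of the bacterial controls. All 8 had their genotype means in the order of PRR5, and their spans, from 1.06 to 1.67, were narrower than that of PRR5. Their choice by r on these same arrays favours both that order and a separation of the genotypes.

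The 4 most opposite genes were AT1G14730 (r = -0.98), AT5G38320 (-0.97), AT3G44430 (-0.94) and AT1G64370 (-0.92). AT1G14730, a cytochrome b561 family gene, had signals of 21.4 and 30.4 in se-1, 40.1 and 29.9 in the transgenic line, 70.9 and 67.9 in ago1-27, and 115 and 94.9 in Col-0. Its se-1 and transgenic arrays overlapped, and the other genotypes did not.

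**Figure D3:**
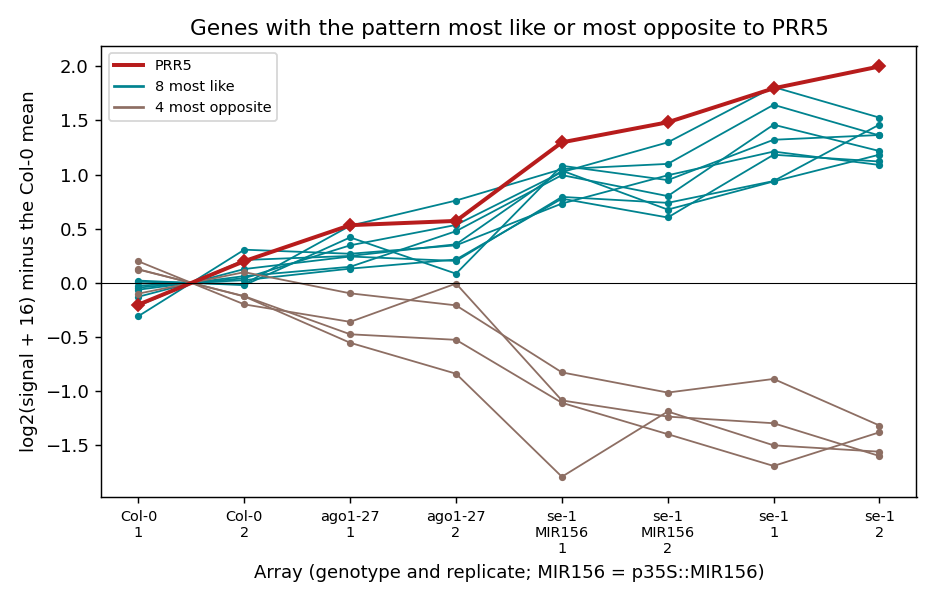
Level of PRR5 (red), the 8 genes with the highest r (teal) and the 4 with the lowest r (brown) on each array, as log2(signal + 16) minus the Col-0 mean of the gene. PRR5 spans 1.90 between genotype means, and the 8 similar genes 1.06 to 1.67.

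The genes beside PRR5 on the chromosome were examined next. Of the 5 protein-coding genes on each side in the reference gene table, 7 had a probe set and 5 were tested, and 0 of these were called by limma in any of the 6 comparisons, with 0 of the 30 values at an unadjusted p under 0.05. The adjacent gene AT5G24460 had means of 152 ± 22.9 in Col-0 and 126 ± 0.680 in se-1 (SD, n = 2), a log2 difference of -0.24 (SE 0.24, limma adjusted p = 0.778). The gene on the other side, AT5G24480, was too dim to be tested. AT5G24490, the next one, had a log2 difference of -0.27 (SE 0.24, adjusted p = 0.728).

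AT5G24240 lies 29 protein-coding genes from PRR5 on the same chromosome in the reference gene table. It was singled out after the values were known, as the gene with the highest log2(signal + 16) difference between se-1 and Col-0. The AT5G24240 signal was 5.59 ± 1.70 in Col-0 and 15.1 ± 12.5 in ago1-27, with 3 of these 4 arrays within the range of the bacterial controls, and 66.1 ± 1.00 in se-1 p35S::MIR156 and 95.6 ± 32.2 in se-1 (SD, n = 2). Its genotype means were in the same order as those of PRR5. Of the 50 protein-coding genes on each side of PRR5, 29 were tested. Since AT5G24240 had been picked for its se-1 difference, neither its p-value nor a count of calls that includes it tests this stretch. By limma, 1 of the 29, AT5G24240, was called higher in se-1 than in Col-0 (log2 difference 2.34, adjusted p = 0.00140), where 0.741% of all tested probe sets were. That call held in all 11 alternatives run for it, but the size of the difference is set largely by the pseudocount, being 3.86 with 1 and 1.18 with 64, where PRR5 had 1.94 and 1.77. It was also the single gene called in the transgenic line against Col-0, where 0.565% were called higher, and this call was lost without either Col-0 array or either transgenic array. The median log2 difference of the 29 between se-1 and Col-0 was 0.05. AT5G24580 was the other gene of this stretch called in any comparison. It was called lower in ago1-27 than in Col-0 with all arrays. That call was lost in 7 of 12 alternatives, among them without either Col-0 array and with a pseudocount of 64. AT5G24580 was also called higher than in ago1-27 in se-1 (log2 difference 1.41, limma adjusted p = 0.00212) and in the transgenic line (1.21, adjusted p = 0.00347). These differences ran from 0.95 to 1.66 and from 0.81 to 1.47 over the alternatives. AT5G24240 was called higher in both comparisons too, where 3.37% and 6.93% of all tested probe sets were called in either direction.

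**Figure D4:**
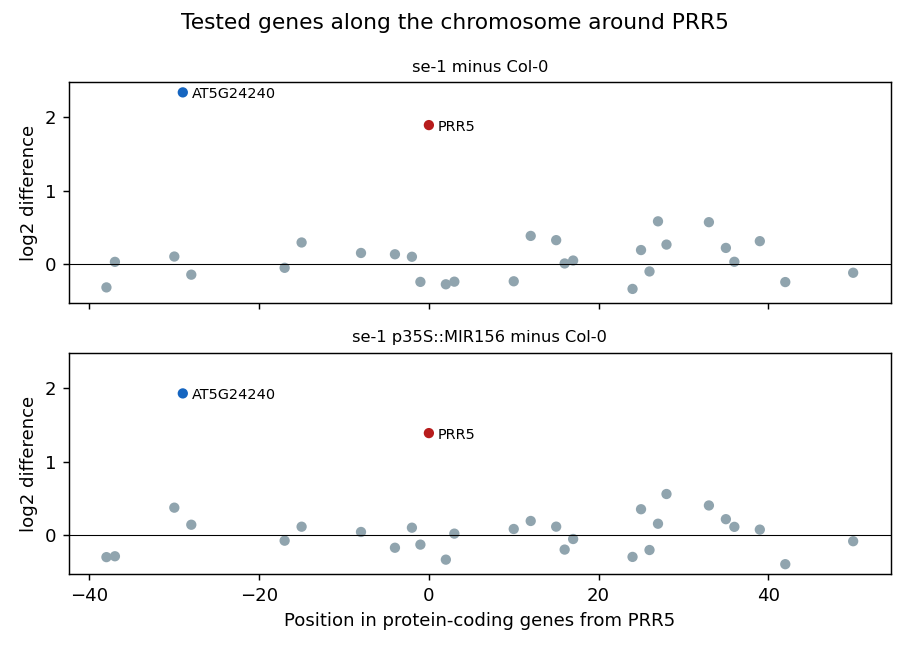
Log2 difference from Col-0 of each tested gene by its position, in protein-coding genes, from PRR5. With a pseudocount of 16, AT5G24240 lies at 2.34 and PRR5 at 1.90 in se-1, and the median of the 29 genes other than PRR5 is 0.05.

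Clock genes differed widely in how well the 2 arrays of a genotype matched. As the ratio of the higher to the lower array on the signal + 16 scale, PRR5 was at most 1.32, in Col-0, beside a median of 1.37 over all tested probe sets for the largest of the 4 ratios. COR27 reached 1.99 in Col-0, 2.51 in ago1-27, 1.48 in the transgenic line and 2.32 in se-1, and 1.02% of tested probe sets had a larger maximum. COR28 reached 3.14 in ago1-27, which 0.188% exceeded, and 1.07 in se-1. The array numbered 2 had the higher PRR5 signal in all 4 genotypes and the lower COR28 signal in all 4, whereas for COR27 it was higher in se-1 alone. For the tested clock genes other than COR28, array 2 was higher in 1 to 3 genotypes. How many of all tested probe sets keep 1 direction in all 4 genotypes was not counted, and the replicate numbers are only labels.

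**Figure D5:**
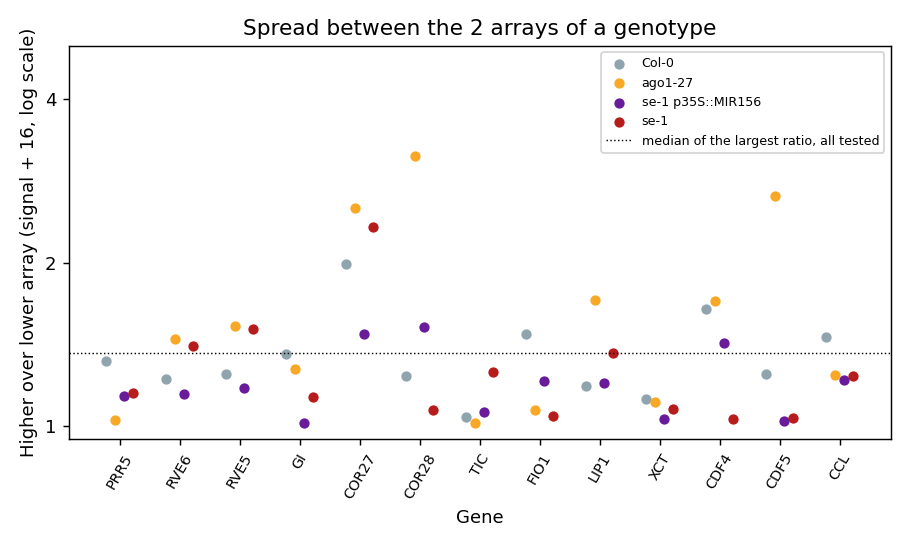
Ratio of the higher to the lower array of each genotype on the signal + 16 scale (log axis) for PRR5 and the 12 tested clock genes. Colours are genotypes, and the dotted line is the median over all tested probe sets of the largest of the 4 ratios, 1.37. All PRR5 points lie below it, and the widest ratio is that of COR28 in ago1-27, 3.14.

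The labelled tissue was checked with fixed markers. Of 15 markers of the shoot meristem and leaf primordia, YAB3, YAB5 and CLV3 had a probe set. CLV3, which marks the stem cells, lay within the range of the bacterial controls on 7 of 8 arrays, while YAB3 means ran from 317 to 476. Summed signals of these 3 were 355 to 464 in Col-0, beside 544 to 569 in se-1, 448 to 620 in ago1-27 and 407 to 421 in se-1 p35S::MIR156. They were mostly YAB3, with a mean of 343 in Col-0. YAB5 means were 61.7 in Col-0, 51.9 in ago1-27, 82.4 in the transgenic line and 94.1 in se-1. YAB5 was thus lowest in ago1-27, where YAB3 was highest. Neither gene was called by limma in any of the 6 comparisons. Sums for 3 of 5 mature leaf markers were 6353 to 6374 in se-1, 6567 to 7764 in the transgenic line, 6970 to 7376 in Col-0 and 8156 to 10148 in ago1-27. By limma, 0 of the 3 were called in any of the 6 comparisons. Those at an unadjusted p under 0.05 numbered 0 in se-1 against Col-0, 2 in ago1-27 against Col-0, 3 in se-1 against ago1-27, 1 in the transgenic line against ago1-27 and 0 in the other comparisons. For 3 of 4 root markers the sums were 677 to 985 in se-1, 1586 to 2404 in the transgenic line, 1717 to 1764 in Col-0 and 144 to 222 in ago1-27. These sums were mostly PYK10, a beta-glucosidase of ER bodies, with a mean of 1663 in Col-0. PYK10 was called lower than in Col-0 in se-1 (log2 difference -1.09, limma adjusted p = 0.0455). That call was lost in 7 of 12 alternatives, among them without either Col-0 array, without se-1 replicate 1 and with quantile normalization. PYK10 was also called lower in ago1-27 (-3.24, adjusted p = 3.96e-06), kept in all 12. It was called higher in the transgenic line than in se-1 (1.28, adjusted p = 0.0356), kept in 6 of 12. The shares of all tested probe sets called were 1.09%, 1.66% and 0.358% in that order. The transgenic line was 0.19 above Col-0 for PYK10 (adjusted p = 0.906). The other root markers, AT1G62510 and AT1G49570, had both se-1 arrays below both Col-0 arrays, as did 19.9% of tested probe sets. In the transgenic line AT1G62510, at 35.3 and 17.7, nearly met the 35.5 and 43.7 of Col-0. The share of probe sets separated in that line was not counted. Both markers were dim, with 4 arrays of AT1G62510 and 3 of AT1G49570 within the range of the bacterial controls. Neither was called by limma against Col-0 in se-1 (adjusted p = 0.550 and 0.577) or in the transgenic line (0.813 and 0.859). In ago1-27 AT1G62510 was called lower than in Col-0 (log2 difference -1.54, limma adjusted p = 0.0291), kept in 5 of 11 alternatives. AT1G49570 was not called there (-0.88, adjusted p = 0.178). The part of tissue makeup in the PRR5 levels was not tested.

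SE itself had a mean signal of 132 ± 4.56 in wild type and 117 ± 0.0955 in the se-1 line (SD, n = 2; limma adjusted p = 0.839). Which stretch of the SE transcript its probes cover is not given here, so this does not check the allele, and AGO1 is not analysed here. As a sign of RNA quality, actin control probe sets gave a 3' over 5' signal ratio of 2.81 to 4.83, highest in ago1-27. The se-1 ratios, 2.97 and 4.22, overlapped with 3.91 and 2.81 in wild type.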

How the data were processed

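The deposited values are probe set intensity on a linear scale. The authors scaled each array, since the 2% trimmed mean was 200.02 on all 8, and GCOS is named, with no version or algorithm, per the submitters' processing notes. Median signals were 76.6 to 82.4, and the number of arrays limits the precision. After removal of 64 controls, values were taken as log2(signal + 16), and dropping the lowest 30% by mean log2 value kept 15922 of 22746 probe sets. All 8 arrays entered 1 limma fit (3.58.1, R 4.3.3), with a mean for each genotype (eBayes with a trend, 4 residual and 11.3 prior degrees of freedom), with Benjamini-Hochberg adjustment within each of 6 comparisons. The fit was tested on simulated data.

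Of 14016 listed probe sets, 13513 had 1 gene and 503 had several, and 13436 had their gene in the RefSeq table (assembly TAIR10.1), used for names and neighbours only. The table gives no gene for the PRR5 probe set. PRR5, the gene lists and the tests were chosen with earlier results of these data known. Named genes were the tested clock, cold and type-A regulator list members, the 8 most similar and the 4 most opposite genes. Alternatives were other pseudocounts, filters, normalization and variance settings, a replicate block, fits of 2 genotypes and leaving out each array; those for the cold, type-A, root marker and chromosome neighbour genes, and the ranks by pseudocount, were added after seeing the data.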

Additional observations from a re-analysis of the deposited data

How the results depend on the processing

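The precision is set by 2 arrays a genotype. PRR5 differences changed sign in 0 of 48 recalculated values, which its non-overlapping arrays fix in advance. Leaving out 1 array gave log2 differences of 1.70 to 2.10 for se-1 against Col-0, 0.35 to 0.75 for ago1-27 against Col-0 and 1.19 to 1.59 for se-1 p35S::MIR156 against Col-0, with both ends from the Col-0 arrays. Leaving out 1 array also gave -0.61 to -0.41 for the transgenic line against se-1. Against ago1-27 it gave 1.24 to 1.45 for se-1 and 0.74 to 0.93 for the transgenic line. With 2 arrays a genotype, these shifts are fixed by the gap between replicates, so they do not measure stability. Under pseudocounts of 1 and 64 or quantile normalization, differences from Col-0 were 1.77 to 1.94 (se-1), 0.50 to 0.57 (ago1-27) and 1.28 to 1.43 (transgenic line). The other 3 were -0.56 to -0.49, 1.27 to 1.39 and 0.78 to 0.86, in the order above.

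Counts of called probe sets moved more. Leaving out 1 array gave 32 to 89 for se-1 against Col-0 (173 with all arrays), 81 to 337 for ago1-27 against Col-0 (265), 10 to 41 for the transgenic line against se-1 (57) and 14 to 42 for it against Col-0 (134). It gave 257 to 538 for se-1 against ago1-27 (537) and 422 to 1049 for the transgenic line against ago1-27 (1103). With no filter on dim probe sets, and so more tests, the counts in that order were 68, 98, 15, 28, 249 and 588. Without a trend the transgenic line gave 25 against se-1 and 75 against Col-0. With only the 2 genotypes in the fit there were 280 for the transgenic line against Col-0 and 263 for se-1 against ago1-27. Other causes were not tested.

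The replicate block gave 187 calls for se-1 against Col-0 and 1070 for the transgenic line against ago1-27, within 1.5 times the unblocked count in all 6 comparisons, and left the PRR5 differences as they were. The replicate numbers are only labels here: deviations of same-numbered arrays correlated between -0.21 and 0.11 over 6 pairs of genotypes. For the 5 tested genes of the morning and evening lists (RVE6, RVE5, GI, COR27 and COR28), 2 of 354 recalculated values crossed the threshold. Both were for COR28 without ago1-27 replicate 2. For the tested cold, type-A and root marker genes, AT5G24240 and AT5G24580, 67 of 696 values added after seeing the data lost a call, 3 gained one (AT1G62510 in the transgenic line against ago1-27) and 0 turned a called direction. Of the 8 most similar genes, 6 remained by Spearman's rho, 7 with pseudocount 1, 8 with quantile normalization and 5 by the 4 genotype means.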
